A study of Rattus norvegicus with 6 samples.

Results

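The untreated primary Leydig cell culture is described here: the 3 arrays whose titles say that no exosomes were added, of 6 arrays in the series. The other 3 arrays held Leydig cells given exosomes, small membrane vesicles, from Sertoli cells at 5 µg/ml for 24 h, and are not used. All cells were primary Leydig cells of Sprague-Dawley rats, kept at 34 °C under 5% CO2 in F12/DMEM medium to which 10% fetal bovine serum and antibiotics were added. They carried no transgene or deletion that the labels name, and the labels give neither the age of the rats nor how the cells were purified or how long they were kept. Total RNA was read on 1-colour rat Agilent arrays, 1 array per sample. Whether the 3 samples came from separate rats or separate dishes is not said, so the spread between them may be technical.

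Leydig cells lie between the seminiferous tubules and make testosterone from cholesterol. Cholesterol is carried into the mitochondrion, shortened to pregnenolone, and turned by a chain of dehydrogenases and cytochrome P450 enzymes into androgens, a path that luteinizing hormone switches on through its receptor and cyclic AMP. Their neighbours in the tissue are macrophages, spindle-shaped stromal cells and vessels, with peritubular muscle-like cells and Sertoli cells at the tubule wall, and a culture made from testis can hold any of them.

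Signals are given as levels: the log2 processed intensity of a probe minus the 75th percentile of the gene spots on the same array, so that 0 marks that percentile and a step of 1 a doubling of the signal. A gene is represented by its probe of highest mean, and 3 values in a row are those of untreated 1, 2 and 3. A probe counts as above background where the scanner software marked it well above background. Probes bind with different strength, so a level says where a probe's signal lies on the array and does not rank genes by RNA amount. In a culture of mixed cells, fewer cells of a type and less RNA per cell cannot be told apart.

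Of 42877 gene spots, 72.6%, 75.6% and 74.6% were well above background, no spot was saturated, and the 75th percentile of the intensity was 872, 779 and 753. The dimmest signals that counted as above background lay at levels of -5.99, -5.98 and -5.78. Over 19419 probes above background, untreated 2 and 3 correlated at r = 0.996, and untreated 1 at 0.993 with untreated 2 and 0.991 with untreated 3. Of 15168 named genes, 10535 (69.5%) were above background on all 3 arrays, 3429 (22.6%) were above the 75th percentile on all 3, and 3299 (21.7%) were above background on 0 arrays. Of 153 negative control spots per array, 2, 2 and 1 carried the mark. Among gene probes at low levels it was more common, and whether those probes report their own transcripts was not tested. Olfactory receptor genes, a family read from the symbols after the values were seen and not known for a role in Leydig cells, carried it on all 3 arrays in 243 of 1094 cases (22.2%). The detected members of that family had a median level of -4.17, and 28 (2.56%) of the whole family stayed above -3 on all 3 arrays, against 7015 (46.2%) of all genes. A gene marked above background at a level below -3 therefore lies in a range that such receptor probes share.

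The brightest named genes were those of protein synthesis, the cytoskeleton and matrix. Of the 20 of highest mean level 13 code for ribosomal proteins. Rplp0, of the ribosomal stalk, was at 6.98 ± 0.03 (SD, n = 3), and Rps12 followed at 6.78 ± 0.03. The other ribosomal protein genes among them included Rplp2, Rpl37a, Rps29, Rpl41, Rpl10a, Rps27, Rps3a, Rpl3 and Rps19, with Rps19 at 6.39 ± 0.08. Of the genes that are not ribosomal, S100a6, a calcium-binding protein of growing and migrating cells, read 6.75, 6.70 and 6.71, and Myl6, a myosin light chain of non-muscle and smooth muscle cells, read 6.50, 6.48 and 6.47. Tpt1, the translationally controlled tumour protein, was at 6.45 ± 0.20, the widest of the 20. Ccdc80, a secreted matrix-bound protein, read 6.35, 6.43 and 6.47. Mgp, matrix Gla protein, an inhibitor of calcification made by stromal and smooth muscle cells, read 6.37, 6.39 and 6.40. Gapdh of glycolysis was at 6.35 ± 0.16 and Actg1, a cytoskeletal actin, at 6.34 ± 0.05. No gene particular to steroid synthesis was among these 20, and ribosomal protein genes made up 57 of the 100 brightest. Among the 100 brightest probes, 46 had no gene symbol and are not named here.

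The 4 genes that mark Leydig cells here were all above background on every array. Star, the protein that brings cholesterol to the inner mitochondrial membrane, read 4.63, 4.76 and 4.96. Hsd3b1, the dehydrogenase that turns pregnenolone into progesterone, read 5.61, 5.63 and 5.68. Cyp11a1, the mitochondrial enzyme that makes pregnenolone from cholesterol, read 0.55, 0.47 and 0.48, just over the 75th percentile. Insl3, the insulin-like hormone of adult Leydig cells, read -0.55, -0.76 and -0.46, below that percentile and well over the dimmest detected signals. The arrays lay close together for each of these genes, with SDs of 0.17 for Star, 0.04 for Hsd3b1, 0.04 for Cyp11a1 and 0.16 for Insl3. All 4 markers of the labelled cell type were thus detected, while other genes that define the Leydig cell were not, as given below.

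Of 27 measured genes of steroid synthesis 24 (88.9%) were above background on all 3 arrays, against 69.5% of all genes, and 13 (48.1%) were above the 75th percentile, against 22.6%. No named probe was found for Cyp19a1 and Sult1e1. At the mitochondrial step, Tspo, the translocator protein of the outer membrane, read 5.00, 4.96 and 4.92. The redox partners of Cyp11a1 were above the 75th percentile too. Fdx1, ferredoxin, read 3.52, 3.53 and 3.61, and Fdxr, its reductase, read 0.36, 0.23 and 0.05. Hsd3b5, a relative of Hsd3b1 known from liver, read 0.72, 1.15 and 1.45 on its brighter probe, while its second probe was above background on 0 arrays at -7.88 ± 0.13. The probe of Hsd3b2 was not above background on any array, at -7.30, -6.91 and -6.80. These genes are close copies of each other, and whether a probe of 1 also binds the transcript of another was not tested.

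Genes of the steps from progesterone to testosterone lay near or under the limit of detection. Cyp17a1, the hydroxylase and lyase that opens the route to androgens, was marked above background on all 3 arrays but read -5.36, -4.79 and -4.66, within 1.5 of the dimmest detected signal of each array. Hsd17b3, the testis enzyme that makes testosterone from androstenedione, read -6.73, -5.72 and -5.68 and was above background on 1 array. Among the partners of Cyp17a1, Cyb5a, cytochrome b5, read 1.15, 1.49 and 1.59, and Por, the P450 reductase, read -3.54, -3.71 and -3.61. The other hydroxysteroid dehydrogenases of the list serve many tissues. Hsd17b11 of lipid droplets (4.02 ± 0.06), Hsd17b10 of mitochondria (3.25 ± 0.18) and Hsd17b4 of peroxisomes (3.00 ± 0.02) were above the 75th percentile. Hsd17b12, of fatty acid elongation, was at -1.26 ± 0.11, and Hsd17b7, which also acts in cholesterol synthesis, at -1.42 ± 0.10. Hsd17b1, the enzyme of estradiol synthesis, was at -2.07 ± 0.05. Each of Cyp17a1, Hsd17b3 and Por is represented by 1 named probe, and whether that probe reports its transcript well was not tested.

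Genes that act on testosterone and on corticosteroids were also measured. Of the steroid reductases that make dihydrotestosterone, Srd5a2 read -2.30, -1.79 and -1.57 and Srd5a1 -2.62, -3.29 and -3.13. The second probe of Srd5a1 was above background on 1 array at -5.95 ± 0.25. Srd5a3, best known for its part in dolichol synthesis, was at 0.07 ± 0.14, with untreated 2 below 0 and the other 2 arrays above it. Akr1c14, the hydroxysteroid dehydrogenase that inactivates dihydrotestosterone, read 3.25, 3.44 and 3.71. Hsd11b1, which interconverts active and inactive glucocorticoid and is a marker of mature rat Leydig cells, read 5.49, 5.36 and 5.31. Its counterpart Hsd11b2, which inactivates glucocorticoid, was at -4.03 ± 0.09. Of the adrenal enzymes, Cyp21a1 was at -2.08 ± 0.22 and Cyp11b1 at -4.20 ± 0.56, both marked above background on all 3 arrays, and Cyp11b2 on 0 arrays at -6.79 ± 0.20.

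**Figure D1:**
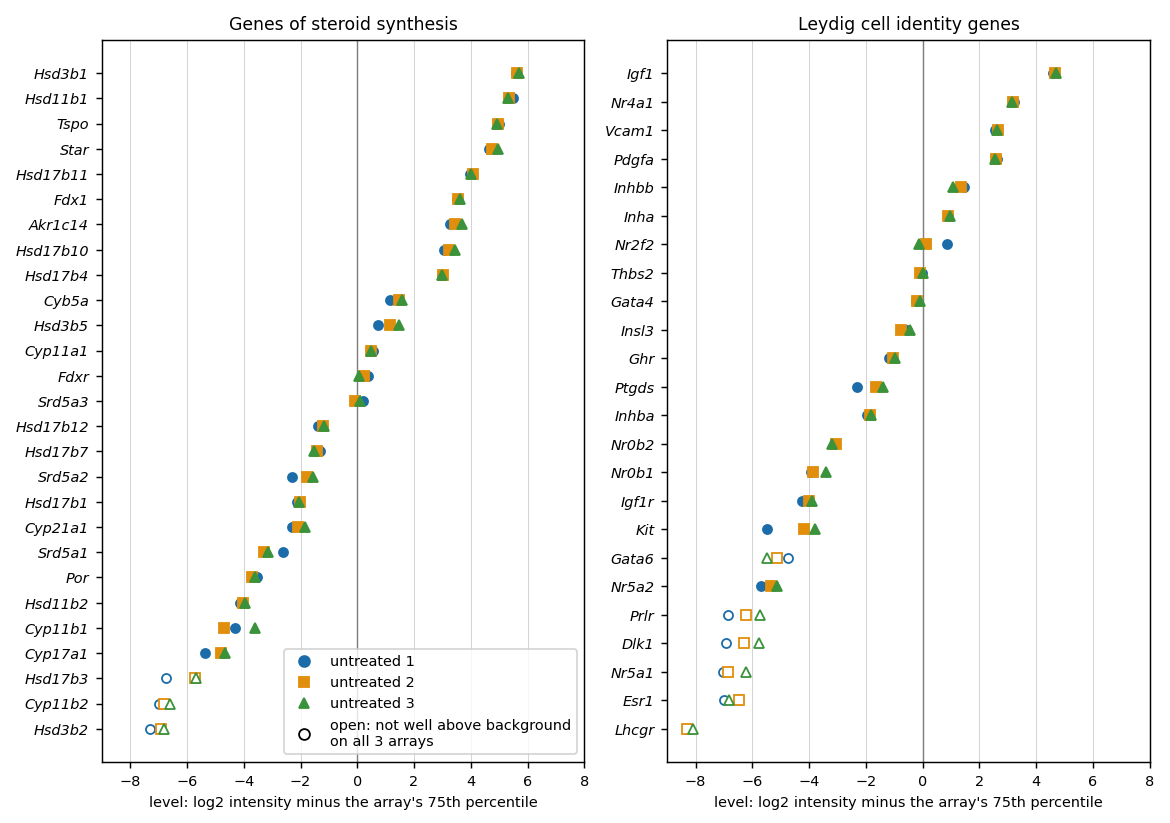
Level of 27 genes of steroid synthesis (left) and 24 of Leydig cell identity (right) on the 3 untreated arrays, as log2 intensity minus the array's 75th percentile (vertical line at 0); each symbol is 1 array, and open symbols mark genes that were not well above background on all 3 arrays. Hsd3b1, Star and Tspo lie near 5 on every array, Cyp11a1 and Insl3 lie near 0, and Hsd17b3, Nr5a1 and Lhcgr carry open symbols below -5.

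Of 27 Leydig cell identity genes 20 (74.1%) were above background on all 3 arrays, near the 69.5% of all genes, and 7 (25.9%) were above the 75th percentile, near the 22.6% of all genes. The receptor of luteinizing hormone, Lhcgr, read -8.32, -8.30 and -8.11, among the lowest readings of these arrays. Nr5a1, steroidogenic factor 1, the nuclear receptor that drives steroidogenic genes, read -7.02, -6.88 and -6.23. Neither was above background on any array, and each has 1 named probe. Nr5a2, the related receptor, was marked on all 3 arrays at -5.39 ± 0.28, near the limit of detection, and its second probe on 0 arrays.

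Some of the other transcription factors of the lineage were above background on all 3 arrays. Gata4, which acts with Nr5a1 at steroidogenic promoters, read -0.23, -0.20 and -0.09. Gata6 read -4.73, -5.14 and -5.48 and was above background on 2 arrays. Nr4a1, an immediate early nuclear receptor that luteinizing hormone induces, read 3.21, 3.18 and 3.16. Nr2f2, a nuclear receptor of stem and progenitor Leydig cells, read 0.86, 0.13 and -0.12, so that untreated 1 stood higher than the other 2 arrays. The repressors Nr0b2 and Nr0b1 were at -3.11 ± 0.08 and -3.74 ± 0.30. Esr1, an estrogen receptor, was not above background on any array at -6.77 ± 0.27.

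Secreted factors and surface proteins of the list fell on either side of the 75th percentile. Igf1, the growth factor that supports Leydig cell maturation, read 4.57, 4.67 and 4.70, and its second probe was at 2.44 ± 0.23. Vcam1, an adhesion molecule found on Leydig cells, read 2.56, 2.65 and 2.62. Pdgfa, a growth factor for their precursors, read 2.63, 2.59 and 2.55 on the brighter of 2 probes, and the other was at -1.56 ± 0.13. The inhibin and activin subunits Inhbb, Inha and Inhba were at 1.29 ± 0.20, 0.92 ± 0.05 and -1.89 ± 0.07. The second probe of Inhbb was at -1.13 ± 0.59. Thbs2, a matrix glycoprotein, was at -0.03 ± 0.06, and Ptgds, the prostaglandin D synthase of mature cells, read -2.31, -1.65 and -1.41. Ghr, the growth hormone receptor, was at -1.07 ± 0.11, while its other 2 probes lay at -5.62 and -7.55. Igf1r, the receptor of Igf1, was at -4.05 ± 0.18. Kit, the stem cell factor receptor, read -5.49, -4.17 and -3.78 and was marked on all 3 arrays. Prlr, the prolactin receptor, and Dlk1, a marker of fetal and progenitor cells, were on 0 arrays at -6.28 ± 0.55 and -6.33 ± 0.57.

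Markers of several other testis cells were at least as widely detected as the Leydig cell identity genes. Over the 11 cell type lists, the share of measured genes above background on all 3 arrays ran from 7 of 21 germ cell genes (33.3%) to 18 of 18 genes of peritubular myoid and smooth muscle cells (100%), beside 69.5% of all genes. The share above the 75th percentile was 72.2% for peritubular myoid and smooth muscle, 57.6% for stromal and 48.6% for macrophage genes. It was 48.1% for steroid synthesis, 40.7% for Sertoli and 25.9% for Leydig identity genes, beside 22.6% of all genes. The endothelial list and the list of lymphocyte, mast and blood cells had 0 genes there. With the level also required to be above -3, 26 of 33 stromal, 25 of 37 macrophage and 17 of 27 Sertoli genes remained. The same held for 16 of 18 peritubular, 19 of 27 steroid synthesis and 15 of 27 Leydig identity genes, beside 46.2% of all genes. The median level was 1.29 for peritubular, 0.78 for stromal, 0.07 for steroid synthesis, -0.14 for macrophage, -1.45 for Sertoli and -1.89 for Leydig identity genes, beside -3.25 over all genes. It was -3.42 for endothelial and -6.30 for germ cell genes. The lists share 4 genes, and many members are also expressed by cells of other types. What these genes contribute to the levels of the steroid genes was not tested.

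**Figure D2:**
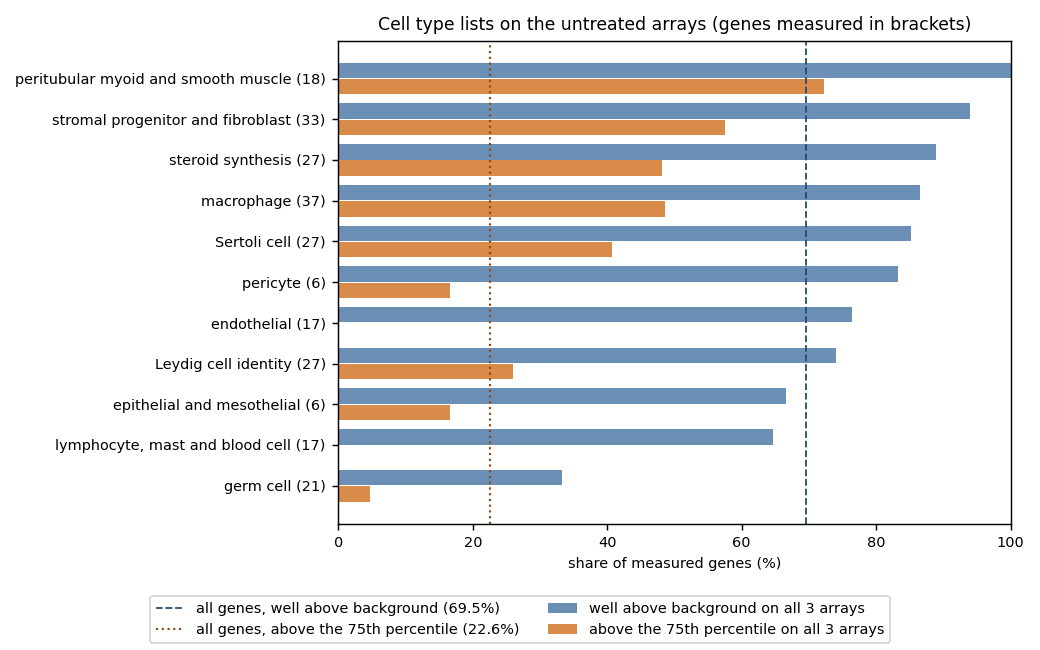
Share of the measured genes of each cell type list that was well above background (blue) or above the 75th percentile (orange) on all 3 untreated arrays; the lines give the same shares over all 15168 genes. Peritubular, stromal, steroid synthesis, macrophage and Sertoli lists exceed both lines, and the Leydig cell identity list does so narrowly. The germ cell list, the lymphocyte, mast and blood cell list and the epithelial and mesothelial list lie below both.

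Macrophage genes were detected in large part, many of them above the 75th percentile. Of 37 measured members 32 (86.5%) were above background on all 3 arrays and 18 (48.6%) were above the 75th percentile. The shares of all genes were 69.5% and 22.6%. Lgals3, galectin 3, which macrophages and other cells make, read 5.85, 5.84 and 5.80, and Lyz2, the lysozyme of myeloid cells, read 4.42, 4.48 and 4.46. Fcer1g and Tyrobp, signalling adaptors of myeloid receptors, were at 3.68 ± 0.11 and 3.45 ± 0.15. All 7 defining markers were above background on all 3 arrays. Cd68, a lysosomal protein, read 3.18, 3.46 and 3.40. C1qa, a complement subunit made by tissue macrophages, read 1.55, 1.50 and 1.64, and Cd163, the haemoglobin scavenger receptor of resident macrophages, 1.74, 1.39 and 1.49. Adgre1, known as F4/80, was at -0.49 ± 0.14 and Csf1r, the receptor of the macrophage growth factor, at -2.60 ± 0.25. Mrc1, the mannose receptor, read -3.88, -2.97 and -2.86. Ptprc, the pan-leukocyte antigen CD45, was the dimmest at -4.91 ± 0.28, and its second probe was on 0 arrays. Spi1, the transcription factor PU.1, was above background on 2 arrays at -5.45 ± 0.52, and the scavenger receptor Marco on 1 at -6.13 ± 0.83. Lyve1 and the class II gene RT1-Ba, both named after their values were seen, were on 0 arrays.

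Stromal genes had the largest share above the 75th percentile among the 11 cell type lists after the peritubular genes. Of 33 measured members 31 (93.9%) were above background on all 3 arrays, beside 69.5% of all genes. Wnt5a and Igfbp5, named after their values were seen, were on 0. Besides Mgp, the brightest were Sparc (5.77, 5.72 and 5.75), a collagen-binding matrix protein, and S100a4 (5.31, 5.22 and 5.32), a calcium-binding protein of fibroblasts. Dcn, decorin, a small proteoglycan, read 5.17, 5.23 and 5.35. Of the other defining markers, Col1a1, a chain of type I collagen, read 3.14, 2.94 and 2.50, and its second probe was at 0.05 ± 0.23. Pdgfra, a growth factor receptor of stem Leydig cells and fibroblasts, read 2.31, 2.19 and 2.10. Tcf21, a transcription factor of testis interstitial progenitors, read 2.02, 1.68 and 1.78. Nr2f2, given above, belongs to this list too, at 0.29 ± 0.51. Thy1, a surface glycoprotein of fibroblasts and stem cells, was the exception at -5.15 ± 0.10, marked on all 3 arrays but near the limit of detection.

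Sertoli cell genes divided between shared and defining members. Of 27 measured members 23 (85.2%) were above background on all 3 arrays and 11 (40.7%) above the 75th percentile. The shares of all genes were 69.5% and 22.6%. The brightest were genes that many cells express. Ctsl, a lysosomal protease, was at 5.93 ± 0.06. Gja1, connexin 43, the gap junction protein that also joins Leydig cells, read 4.29, 4.36 and 4.33. Clu, clusterin, read 3.98, 4.20 and 4.52, and Tf, transferrin, 4.04, 3.75 and 3.93. Of 6 measured defining markers 4 were above background on all 3 arrays. Dhh, the hedgehog ligand by which Sertoli cells act on the interstitium, read 0.55, 0.23 and 0.90, but its second probe read -4.54, -4.68 and -4.53. Wt1, the transcription factor that maintains Sertoli cells, read 0.59, 0.41 and 0.30 on the brightest of 3 probes, and the others were at -2.64 and -2.69. Rhox5, a homeobox gene that androgen induces in Sertoli cells, read -1.79, -1.33 and -1.32. Cldn11, the claudin of the blood-testis barrier, was near the limit at -5.20, -4.48 and -4.48. Fshr, the receptor of follicle-stimulating hormone, read -7.39, -5.40 and -5.64 and was above background on 2 arrays. Amh, the anti-Müllerian hormone, was on 0 arrays at -5.92 ± 0.18, and Sox9 had no named probe. Dmrt1 and Gata1, named after their values were seen, were on 0 arrays as well.

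All 18 measured genes of peritubular myoid and smooth muscle cells were above background on all 3 arrays, and 13 were above the 75th percentile. The shares of all genes were 69.5% and 22.6%. Tpm2, a tropomyosin, read 4.59, 4.67 and 4.72, and Acta2, smooth muscle actin, 4.23, 4.60 and 4.28. Tpm1 was at 3.51 ± 0.15 and the small heat shock protein gene Hspb1 at 3.29 ± 0.09. Tagln, transgelin, read 3.27, 3.10 and 3.25. Of the 4 defining markers, Acta2 and Tagln lay above the 75th percentile and Myh11 and Cnn1 below it. Myh11, the smooth muscle myosin, read -0.68, -0.35 and -0.27 on its brighter probe and -3.68 ± 0.38 on the other, and Cnn1, calponin, read -4.43, -4.99 and -4.79.

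Genes of the remaining cell types lay mostly below the 75th percentile. Endothelial genes were above background in 13 of 17 cases (76.5%), near the 69.5% of all genes. Of the 17, 4 stayed above -3, beside 46.2% of all genes. Pecam1 was at -1.01 ± 0.28, Plvap at -2.02 ± 0.13, Esam at -2.48 ± 0.23 and Sox18 at -2.56 ± 0.06. Kdr and Cdh5, endothelial receptors and junction proteins, were at -2.95 ± 0.12 and -3.98 ± 0.16, Tek was on 0 arrays at -7.19 ± 0.61, Sox17 on 1, and Vwf had no named probe. Of 6 pericyte genes 5 (83.3%) were detected, beside 69.5% of all genes. Of the 6, 2 stayed above -3, beside 46.2% of all genes. Kcnj8, a potassium channel subunit, read 1.22, 1.13 and 1.11. Notch3, Mcam and Abcc9 were at -1.96 ± 0.26, -3.52 ± 0.19 and -3.85 ± 0.23, Rgs5 at -4.99 ± 0.40, and Cspg4 was above background on 1 array at -5.81 ± 0.14.

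Germ cell genes were the least detected. The defining markers Ddx4 (-8.19 ± 0.13), Sycp3 (-8.19 ± 0.13) and Prm1 (-6.30 ± 0.36) were on 0 arrays and Dazl on 1 (-6.65 ± 1.23). Of the 7 members detected on all 3 arrays, Odf2, which also serves the centrosome of other cells, was at 0.60 ± 0.06. The next were Tex101 (-3.40 ± 0.36), Hspa2 (-3.53 ± 0.21) and Gapdhs (-3.71 ± 0.16). Zbtb16, Mael, Acrv1 and Pgk2 were above background on 1 array each. Zbtb16, a factor of spermatogonia that other cells also express, read -6.82, -6.78 and -3.21, with untreated 3 alone above background. Genes of lymphocytes, mast cells and blood were above background in 11 of 17 cases (64.7%), near the 69.5% of all genes. Of the 17, 1 stayed above -3, beside 46.2% of all genes. The brightest were Cd3d (-2.06 ± 0.06), Alas2 of erythroid haem synthesis (-3.14 ± 0.01), Cd3g (-3.19 ± 0.07) and Cd8a (-3.79 ± 0.60). Cpa3 of mast cells was at -5.40 ± 0.47, and Cd3e of T cells was on 0 arrays at -7.74 ± 0.71. Cd4 was above background on 2 arrays, and S100a9 and Cd79b on 1. Of 6 epithelial and mesothelial genes, Msln, mesothelin, read 0.50, 0.62 and 0.45, and Pax8, a factor of Müllerian and kidney epithelium, was at 0.02 ± 0.16. Krt7 was at -2.94 ± 0.05 and Krt19 at -4.74 ± 0.34, Cdh1 was on 0 arrays at -6.49 ± 0.38 and Epcam on 1 at -6.97 ± 1.51.

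**Figure D3:**
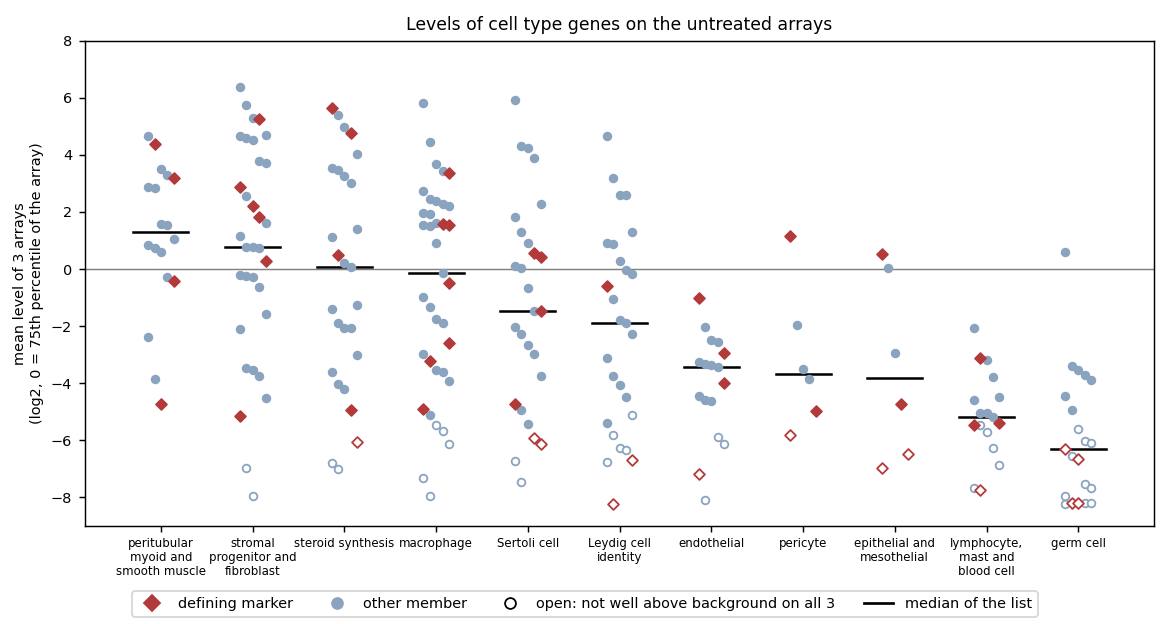
Mean level over the 3 untreated arrays (log2, 0 is the array's 75th percentile) of every measured gene of the 11 cell type lists, ordered by the list's median (black bar); red diamonds are defining markers and open symbols genes not well above background on all 3 arrays. Peritubular, stromal and steroid synthesis medians lie above 0, the last at 0.07, and all 4 defining germ cell markers are open and below -6.

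Cholesterol is the raw material of steroids. Of 36 measured genes of its synthesis and supply 34 (94.4%) were above background on all 3 arrays, beside 69.5% of all genes, and 18 (50.0%) above the 75th percentile, beside 22.6%. Apoe, the apolipoprotein by which cells export and take up cholesterol, read 5.93, 5.96 and 5.98. Fdps, which makes farnesyl diphosphate, read 3.80, 4.06 and 4.21, and Ebp, a sterol isomerase, 3.55, 3.52 and 3.58. Scarb1, the receptor for high-density lipoprotein on which rat steroidogenic cells rely, read 2.17, 1.65 and 1.43, and was named after its values were seen.

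Of 26 genes of cyclic AMP and protein kinase A 18 (69.2%) were above background on all 3 arrays, near the 69.5% of all genes. Of the 26, 10 stayed above -3, beside 46.2% of all genes. Gnas, the stimulatory G protein subunit, read 5.75, 5.84 and 5.85, and the kinase subunits Prkar1a and Prkaca were at 2.98 ± 0.02 and 2.18 ± 0.38. Of 25 steroid and peptide hormone receptors 16 (64.0%) were above background on all 3 arrays, also near the 69.5% of all genes. Of the 25, 10 stayed above -3, beside the same 46.2%. Igf2r, the receptor of insulin-like growth factor 2 and of lysosomal enzymes, read 2.98, 2.51 and 2.20, Ednra, an endothelin receptor, was at 0.93 ± 0.23 and Rara, a retinoic acid receptor, at 0.73 ± 0.27. Pgr, the progesterone receptor, named after its values were seen, was on 0 arrays at -8.22 ± 0.11.

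Matrix, complement and chemokine genes are read beside the shares of all genes, 69.5% above background and 22.6% above the 75th percentile. Of 28 genes of collagens and matrix 27 (96.4%) were above background on all 3 arrays and 15 (53.6%) above the 75th percentile. Timp2, an inhibitor of matrix proteases, read 6.09, 6.09 and 6.03, Bgn, biglycan, was at 5.85 ± 0.10, and Sparc is given above. All 21 genes of complement and acute phase were above background, 13 of them above the 75th percentile. C1s, a protease of the first complement component, read 5.53, 5.54 and 5.50, its inhibitor Serping1 was at 5.01 ± 0.28 and its partner C1r at 4.98 ± 0.09. Of 32 chemokines and cytokines 27 (84.4%) were above background and 8 (25.0%) above the 75th percentile, the latter near the share of all genes. Mif, macrophage migration inhibitory factor, which rat Leydig cells are known to make, read 5.96, 5.92 and 5.87. Cxcl12 was at 4.53 ± 0.07 and Cxcl16 at 4.02 ± 0.04. Il1b and Tnf, inflammatory cytokines of activated macrophages named after their values were seen, were on 0 arrays at -6.65 ± 0.51 and on all 3 at -4.27 ± 0.34.

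Most metabolic and stress genes were detected, beside 69.5% of all genes above background and 22.6% above the 75th percentile. All 34 antioxidant and detoxification genes were above background, 24 of them above the 75th percentile. The metallothioneins Mt1 (6.30, 6.24 and 6.20) and Mt2A (6.20, 6.22 and 6.21) and the glutathione transferase Gsta1 (6.03, 6.09 and 6.05) led them, and copies of these families may share signal. All 18 stress and heat shock genes were above background, with the chaperones Hspa8 and Cryab at 6.08 ± 0.11 and 5.10 ± 0.03 and the factor Atf4 at 4.67 ± 0.04. Of 19 glycolysis genes 18 were, with Tpi1 at 6.24 ± 0.07 and Ldha at 6.19 ± 0.02 after Gapdh. Of 19 immediate early genes 18 were above background and 12 above the 75th percentile. Junb read 6.43, 6.34 and 6.17, Ier2 4.89, 4.92 and 4.94, and Fos 3.86, 3.81 and 3.90. Serum is known to induce these genes quickly in many cells, and whether it did so here was not tested. Of 31 cell cycle genes 28 (90.3%) were above background, 6 (19.4%) above the 75th percentile and 17 above -3, beside 69.5%, 22.6% and 46.2% of all genes. Cdkn1a, the p21 inhibitor of division, read 2.42, 2.36 and 2.43, Pcna 1.33, 1.52 and 1.60, and Mcm7 1.46, 1.36 and 1.33, and Mki67 and Top2a had no named probe. All 17 housekeeping genes were above background, Rplp0 and Gapdh being followed by Rps18 at 6.25 ± 0.03.

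The 3 arrays repeated each other closely for most genes. The median SD over the 10535 genes above background was 0.153, beside 0.0623, 0.0633 and 0.0596 for repeated spots of a probe within an array. It was 0.218 for genes with a mean level below -3 and 0.0914 for genes above 3. Untreated 1 set much of this spread: without it the median SD was 0.0809, against 0.178 without untreated 2 and 0.131 without untreated 3. These are SDs over 2 arrays, so they compare with each other and not directly with the 0.153 over 3 arrays. An SD over 0.5 was found in 499 genes (4.74%). The 10 largest, all of genes above background on all 3 arrays, were at mean levels below -3 save for Adam32. They were Lrrc24 (SD 1.75), Adam32 (1.66), Ptprh (1.55), Vom2r19 (1.41), Or4c31 (1.39), Or8c10b (1.37), Cxcl10 (1.32), Vom1r8 (1.31), Ikzf2 (1.30) and Ptprz1 (1.29). Lrrc24, a leucine-rich repeat protein, read -5.74, -2.53 and -5.34, high on untreated 2 alone, and its other probe read -4.13, -4.72 and -4.89. Adam32, a testis member of the disintegrin and metalloprotease family, read -3.05, -0.63 and 0.12.

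**Figure D4:**
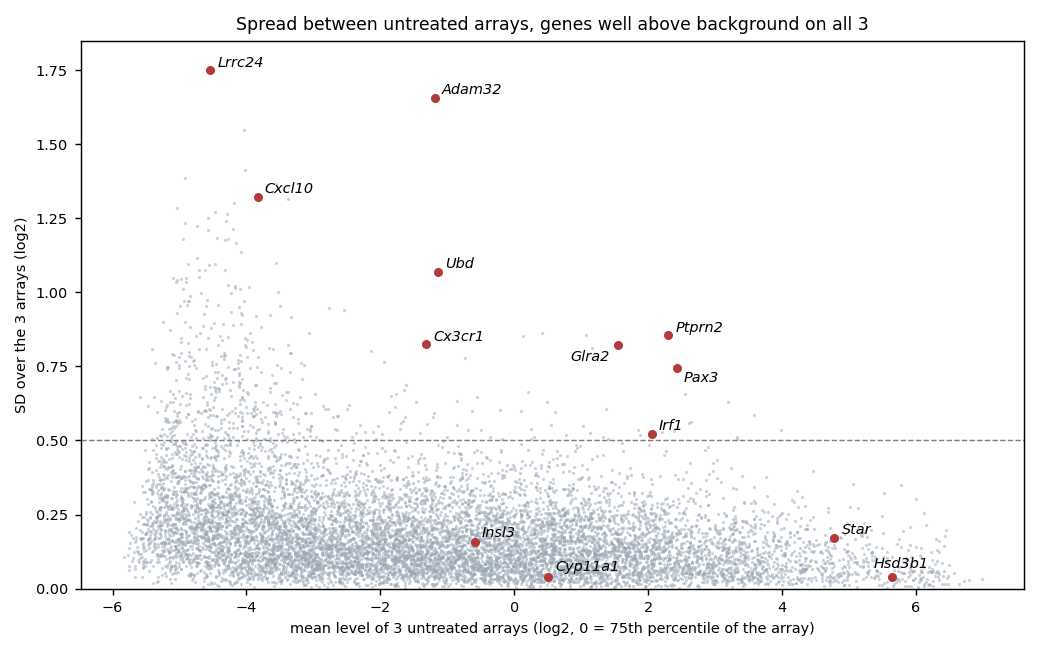
SD over the 3 untreated arrays against the mean level (both log2) for the 10535 genes well above background on all 3; each grey point is 1 gene, red points are named genes, and the dashed line marks an SD of 0.5. The Leydig markers Star, Hsd3b1, Cyp11a1 and Insl3 lie below 0.2, and Adam32, Ubd and Ptprn2 lie above 0.8 at mean levels above -3.

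Of 7234 genes with a mean level over -3, 88 had an SD over 0.5, and in 72 of these untreated 2 lay between the other arrays. Untreated 1 was the highest in 50 of the 88 and the lowest in 38. The following genes were chosen after their values were seen. Several bright probes were lowest on untreated 1 and highest on untreated 3, with nearly the same differences between arrays: Ptprn2 read 1.36, 2.51 and 3.03, Glra2 0.64, 1.75 and 2.24, Tmem47 0.14, 1.25 and 1.82, Cym -0.52, 0.62 and 1.17, and Extl3 -0.80, 0.34 and 0.87. Cx3cr1, the fractalkine receptor and a macrophage gene, showed the same order at -2.23, -1.08 and -0.64 (SD 0.83), as did the macrophage gene Mrc1, given above (SD 0.56), while the median SD of the detected macrophage genes was 0.12. Pax3 (3.21, 2.36 and 1.72) and Hivep3 (2.02, 1.03 and 0.42) had the opposite order. Second probes of Ptprn2 and Hivep3 were above background on 0 arrays, at -7.85 each, and that of Tmem47 on 1 array at -6.59 ± 2.19. For these 3 genes the probes of 1 gene disagree in level.

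Interferon response genes, a list of 44 also chosen after the values were seen, were higher on untreated 1 in many cases. Of 36 members above background on all 3 arrays, 22 (61.1%) were highest on untreated 1, beside 33.2% of all genes above background, with a median deviation from the gene's mean of 0.12 on untreated 1. Ubd, a ubiquitin-like protein that interferon induces, read 0.05, -2.01 and -1.46, Cxcl10, an interferon-induced chemokine, -2.33, -4.81 and -4.37, and Irf1, an interferon regulatory factor, 2.65, 1.79 and 1.71. Isg15, a ubiquitin-like modifier, read -1.49, -2.26 and -2.10. Not all members shared this order: Ifi44l (-4.63, -3.12 and -4.20), Oas2 (-4.93, -3.61 and -3.77) and Ifit3 (-2.93, -2.49 and -2.18) were lowest on untreated 1. The share of all genes highest on untreated 1 moves with the scaling, from 30.7% after normexp to 63.5% after median centring, and that of the interferon list from 61.1% to 83.3%. Collagen and matrix genes showed a like share, with 17 of 27 (63.0%) highest on untreated 1. All 3 arrays share 1 scan time, and the array position was 1, 2 and 3 for untreated 1, 2 and 3, so position and sample cannot be told apart. Whether RNA quality or culture differed between the samples was not tested.

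**Figure D5:**
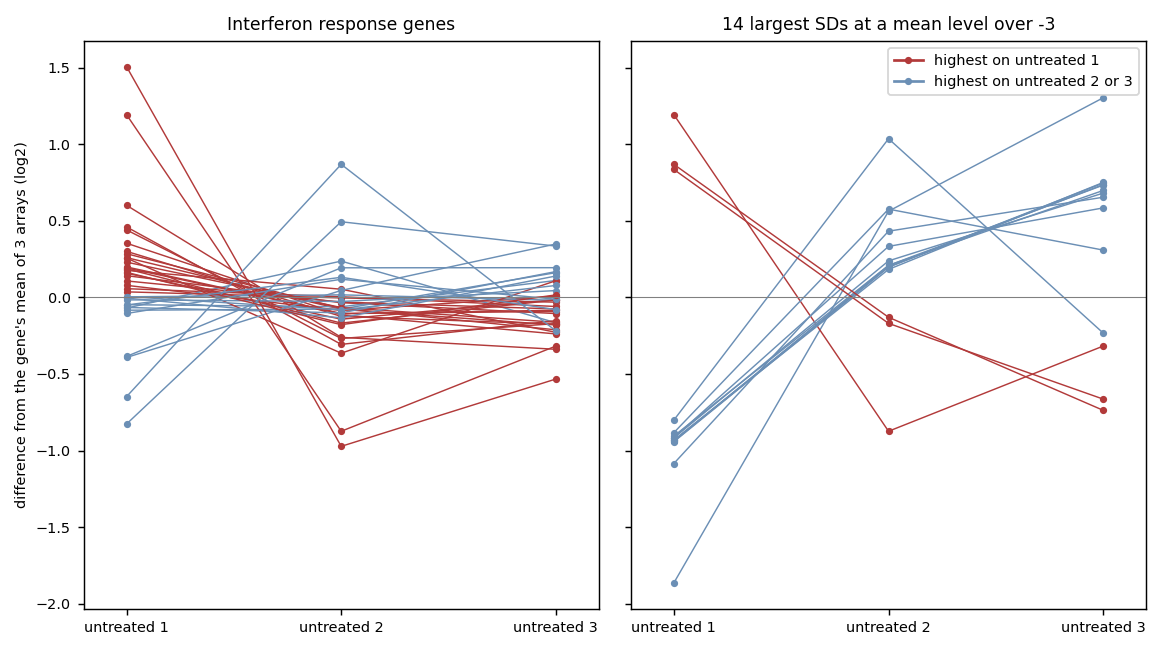
Difference of each array from the gene's mean of 3 arrays (log2) for the 36 detected interferon response genes (left) and the 14 genes of largest SD at a mean level over -3 (right); each line joins the 3 arrays of 1 gene and is red where untreated 1 is highest. Red lines are 22 of the 36 on the left, and on the right 11 of 14 lines are lower on untreated 1 than on the other arrays.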

How the data were processed

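The labels name total RNA taken with TRIzol, amplified linearly and labelled with Cy3. Per the file headers, the deposited array files hold fluorescence intensity per spot from Agilent Feature Extraction 11.0.1.1, as the submitters' processing notes also state. Feature Extraction had already subtracted background from the processed intensity, without scaling arrays to each other. The authors' deposited table of log2 values served as an alternative only.

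Spots marked as outliers (388 to 453 per array) were left out, spots of a probe averaged as log2, and the array's 75th percentile over gene spots subtracted. A probe was above background where most of its spots were, a gene where any of its probes was. Symbols came from RefSeq accessions in a GRCr8 table: 18003 of 30362 probes, 15168 genes. The array was designed on rn4, so no positions are given. No sequences are printed.

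With 1 group and 3 arrays no test was made, and the number of arrays limits the precision. Python 3.11.15, pandas 2.3.3, numpy 2.4.6, matplotlib 3.10.9, R 4.3.3 and limma 3.58.1 were used. The calculation of levels and SDs was tested on simulated data with 1 spot per probe and 1 probe per gene. Averaging of repeated spots and the detection mark were not tested in this way. Members, 23 lists and tests were chosen with earlier results of these data known. Named genes are the 20 brightest, all steroid synthesis and Leydig identity genes, each cell type list's defining and 4 brightest members and those detected on 1 or 2 arrays (up to 5), each function list's 3 brightest, and the 10 of largest SD. Others were named after their values were seen. Some genes this rule picks are not reported here, though counts include them.

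Alternatives were each array left out, outlier spots kept, and the median over a gene's probes with all its probes above background. Further ones were other detection rules and marks, a level over -3, median centring, quantile normalization and the deposited table. The last was normexp (offset 50) on the median signal, since no mean signal was available.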

Additional observations from a re-analysis of the deposited data

How the results depend on the processing

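Leaving out each array in turn gave 10608 to 10924 genes above background (10535 with all 3), 3443 to 3525 above the 75th percentile (3429), and a median SD of 0.0809 to 0.178 (0.153). The SDs with an array left out are over 2 arrays, unlike the 0.153, and the lowest, 0.0809, was without untreated 1. No list's count moved by over 1.5 times in these settings. Requiring a level above -3, a rule added after the levels of olfactory receptors were seen, left 7015 genes, and 4 endothelial, 2 pericyte, 1 germ cell, 1 lymphocyte, mast and blood cell, 10 cyclic AMP, 10 receptor and 17 cell cycle genes, while the other 16 lists stayed within 1.5 times. The germ cell count of 7 became 12 with detection on at least 1 array and 12 with the scanner's mark for positive and significant signal. Centring on the median put 8225 genes above 0, which is then the median and not the 75th percentile. Of the 20 brightest genes 17 to 20 were shared with each scaling or left-out array. The median shift of detected genes' levels was 0.18 with normexp, 0.71 with quantile normalization, 0.68 in the deposited table and 3.93 with median centring. Of 185 named levels 121, 170, 167 and 185 in turn moved by over 1 SD, and single genes moved unequally: normexp put Cxcl10 at -2.00, -3.26 and -2.98. The quantile and table values take the percentile over probes, not spots. No paired analysis was possible because 1 group is described and no groups are compared. Signal over background limits genes below about -3.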

Other observations

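Gene families read from the symbols, chosen after the values were seen, are given beside the shares of all genes, 69.5% above background and 22.6% above the 75th percentile. Of 79 cytosolic ribosomal protein genes 76 were above background on all 3 arrays, with a median level of 6.03, and all 66 mitochondrial ribosomal protein genes were, with a median of 1.64. All 38 proteasome subunit genes were detected, 33 of them above the 75th percentile and led by Psmb4 at 5.04. Of 17 cathepsins, the lysosomal proteases, 11 (64.7%) were detected, near the share of all genes, and 9 (52.9%) were above the 75th percentile. Of 41 keratins, the intermediate filaments of epithelia, 14 (34.1%) were detected. Of the 41, 3 (7.32%) stayed above -3, beside 46.2% of all genes. The pheromone receptors of the vomeronasal families were above background in 25 of 113 cases (22.1%), close to the 22.2% of olfactory receptors. A few receptor probes were bright, and Or6al1 read 4.84, 4.63 and 4.57.

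Probes of 1 gene often disagreed. Of 1494 genes with 2 or more probes above background on all 3 arrays, the median gap between the brightest and the dimmest probe was 2.02, and 1090 (73.0%) had a gap over 1. Hk1, a hexokinase with 1 named probe, read 2.58, -8.23 and 2.20, so that untreated 2 was at the lowest readings of the array and the other 2 arrays were above background. No other gene differed that far between arrays, the next being Ptk6 with an SD of 2.89.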
